A study of Mus musculus with 8 samples.

Results

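The cytosolic ribosomal protein genes were followed in brain RNA of Akap11 conditional knockout (cKO) and control mice. They were taken as the protein-coding genes whose symbol is Rpl or Rps followed by digits, with an optional a or x, together with Rplp0, Rplp1, Rplp2 and Rpsa. Of the 57186 genes listed for each library, 76 met this definition, 30 of the small subunit and 46 of the large subunit. The definition uses symbols and gene type alone, but it was chosen with earlier results of these data known. The study made 4 cKO and 4 control libraries from total RNA of a tissue labelled as brain, without a region. Akap11 encodes an anchoring protein for protein kinase A, and the series title describes it as a psychiatric risk gene and an autophagy receptor. The sources used here do not give the recombinase line and its promoter, the targeted exons, strain, age, sex or any treatment. Replicates are not stated to be separate animals; p-values therefore reflect how far these libraries differ among themselves, which may be technical.

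Ribosomal proteins clothe the ribosomal RNA of the 2 subunits, the small one reading the messenger RNA and the large one joining amino acids. Their genes are transcribed in every cell type of the brain, and neurons also carry ribosomes and ribosomal protein transcripts into dendrites and axons. In mammals these transcripts begin with a run of pyrimidines, the 5' terminal oligopyrimidine (TOP) motif, through which their translation follows the kinase mTORC1. Translation, ribosome number and protein levels are not measured by read counts of RNA.

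The starts of 6 members that carry a run of C and T letters are printed below, because the run is the sequence feature the family is known for; Rpl26 is added as the member with the lowest p-value. Each window is the strand of the gene from 10 bases before to 20 bases after the RefSeq transcript start (build GRCm38.p6), so that the base in position 11 is the first transcribed base of the RefSeq model. Capitals mark the pyrimidine run, and in Rpl26 the letters CCGGAAG, the core bound by ETS-family factors. Each line gives 5' to 3' sequence.
Rps6, chr4:86857348-86857377, minus strand: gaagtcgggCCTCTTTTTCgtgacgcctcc
Rplp2, chr7:141447641-141447670, plus strand: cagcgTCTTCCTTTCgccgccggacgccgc
Rpl38, chr11:114668570-114668599, plus strand: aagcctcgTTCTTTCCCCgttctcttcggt
Rps27, chr3:90213629-90213658, minus strand: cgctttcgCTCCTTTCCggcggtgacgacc
Rpl39, chrX:37085203-37085232, minus strand: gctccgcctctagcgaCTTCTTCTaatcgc
Rpl35, chr2:39005112-39005141, minus strand: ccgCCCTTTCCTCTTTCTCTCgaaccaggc
Rpl26, chr11:68901556-68901585, plus strand: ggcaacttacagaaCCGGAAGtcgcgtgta
In Rpl35 the run was 18 letters long, in Rps6, Rplp2 and Rpl38 it was 10, in Rps27 it was 9 and in Rpl39 it was 8. The Rpl39 run began at base 7 of the RefSeq transcript and not at its start, which the other marked runs spanned. The Rpl26 window held no run longer than 3 letters.

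A promoter was found in the RefSeq table for 56 of the 76 members. A run of at least 8 pyrimidines on the gene's strand lay between 10 bases before and 20 bases after the start in 20 of these 56 (35.7%), against 11.2% of all 27025 promoters in the table. CCGGAAG occurred on either strand of the 300-base promoter in 22 members (39.3%), against 9.12% of all promoters. GGGCGG, the core of the GC box, was held by 58.9% of the members and 35.9% of all promoters. TATAAA was held by 8.93% of the members and 14.2% of all promoters. These are matches of letters and not measured sites of binding, and a RefSeq start can differ from the start used in brain.

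Reads in genes numbered between 13841218 and 19991942 in cKO libraries and between 15752877 and 19818313 in control libraries. Akap11 itself, given first as a check of the labels, held 220, 214, 237 and 240 CPM (counts scaled to library size with TMM factors) in cKO libraries and 373, 312, 315 and 291 CPM in control libraries. Every cKO value lay below every control value, with an edgeR log2 fold change of -0.50 (SE 0.07, adjusted p 0.0103). That call was not reached without control replicate 2 (-0.52, edgeR adjusted p 0.0616) or without cKO replicate 2 (-0.47, edgeR adjusted p 0.104). Reads assigned to genes made up 63.8% of the total in cKO replicate 1, 73.9% to 79.7% in the other cKO libraries and 73.7% to 74.9% in control libraries. cKO replicate 1 also had the most ambiguous (10.1%) and unaligned (10.4%) reads. The 4 neuronal markers Rbfox3, Snap25, Syt1 and Tubb3 summed to between 4357 and 4787 CPM in cKO and between 4591 and 5008 CPM in control libraries. The liver transcripts Alb and Apoa1 summed to at most 0.201 CPM in cKO and 0.502 CPM in control libraries. Summed astrocyte markers ranged from 944 to 974 CPM in cKO and from 814 to 974 CPM in control libraries. Within that list Aqp4 was higher in cKO (log2 fold change 0.46, edgeR adjusted p 0.0104); Gfap did not pass the test, but its cKO values all lay above control (0.33, edgeR adjusted p 0.889), and Slc1a3 was at -0.08. Summed microglial markers ranged from 134 to 142 CPM in cKO and from 128 to 152 CPM in control libraries, with 0 of 4 called. The groups of P2ry12 were separate and lower in cKO (-0.26, edgeR adjusted p 0.889). The other microglial markers went the other way with overlapping groups, Tmem119 at 0.17, C1qa at 0.10 and Cx3cr1 at 0.08. The part of cell composition in the values below was not tested.

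None of the ribosomal protein genes passed the test between cKO and control brain. Of the 76 members 75 had enough reads to be tested, and 0 had an edgeR adjusted p under 0.05 (Benjamini-Hochberg over 16766 genes, smallest member value 0.889); over all genes 0.0239% were called. DESeq2 and limma voom also called 0 members. At an unadjusted edgeR p under 0.05 there were 0 members higher in cKO and 1 lower, Rpl26, where 2.87% of all genes were higher, 1.91% lower and 4.78% either. Groups did not overlap for 1 member higher in cKO, Rps13, and for 2 lower, Rpl3 and Rpl21, where 1.57% of all genes were separated upward and 1.39% downward. The counts at an unadjusted p under 0.05 and the count separated upward lie below the share over all genes. The count separated downward, 2 of 75, lies above its share, but is too small to be read as a difference.

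The intervals were narrow for most members. The 95% interval of the fold change lay within 1.25-fold in either direction for 64 of the 75 members (85.3%) and within 1.5-fold for 70 (93.3%). Among all genes tested these shares were 53.5% and 76.8%, and among the 4774 genes with a mean of at least 50 CPM they were 94.0% and 99.5%. The 5 members whose interval reached beyond 1.5-fold were Rpl23a, Rpl35, Rps10, Rps28 and Rps29. With this spread between libraries a change of that size was not excluded for these 5.

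The fold changes were small and leaned slightly negative. Their median was -0.024 on the log2 scale, with quartiles of -0.06 and 0.02 and a range from -0.31 (Rpl23a) to 0.25 (Rps10). Positive values were found for 28 of the 75 members (37.3%), against 51.2% of all genes, whose median was 0.003. Among genes of at least 50 CPM 43.5% were positive and the median was -0.014. The lean depended on single libraries: without cKO replicate 1 the median was 0.006 with 41 members positive, and without cKO replicate 2 it was -0.058 with 14 positive. A lower level per cell and fewer cells with a high level cannot be told apart in such bulk RNA.

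**Figure D1:**
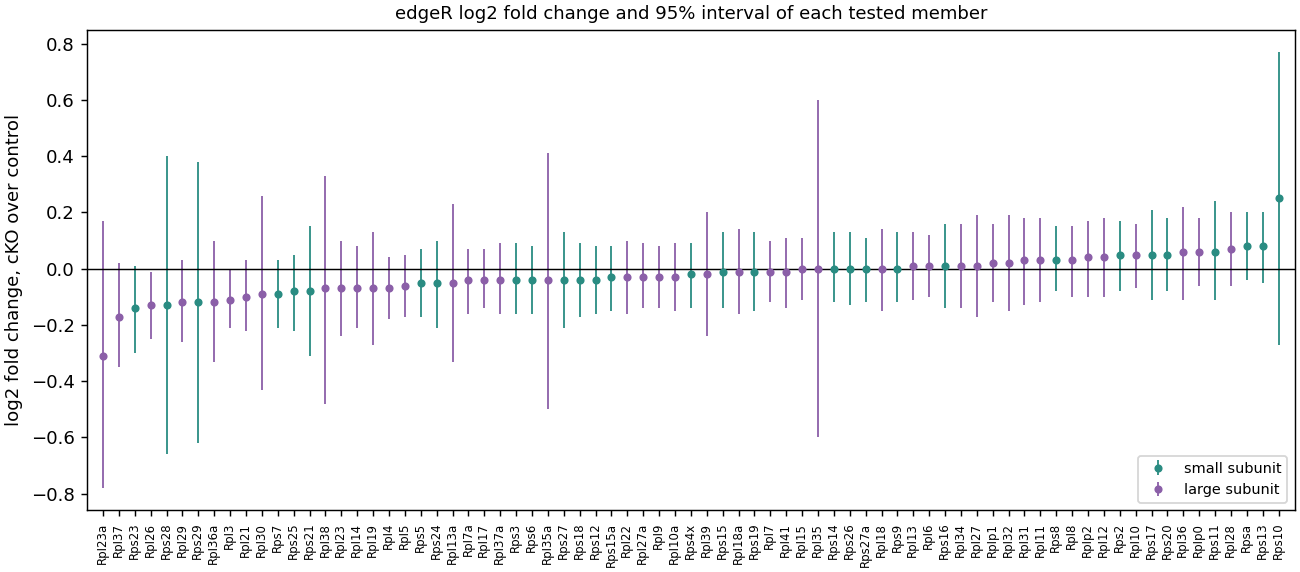
The edgeR log2 fold change, cKO over control, is plotted for each of the 75 tested members from lowest to highest, with its 95% interval as a vertical line and the subunit as colour. Most points lie close to 0, and the widest intervals belong to Rpl35, Rps28, Rps10, Rps29 and Rpl23a.

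As a share of all reads in genes the members together held 1.01%, 1.13%, 1.09% and 1.05% in cKO libraries and 1.04%, 1.10%, 1.09% and 1.10% in control libraries. The cKO values had both the lowest and the highest library, and the groups overlapped. The mean was 1.07% ± 0.0516 in cKO and 1.08% ± 0.0287 in control brain (SD, n = 4 each). Small subunit members held 0.410% ± 0.0210 in cKO and 0.414% ± 0.0118 in control libraries, and large subunit members 0.659% ± 0.0282 in cKO and 0.669% ± 0.0185 in control libraries. For both subunits cKO replicate 1 had the lowest share of the 8 libraries and cKO replicate 2 the highest.

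**Figure D2:**
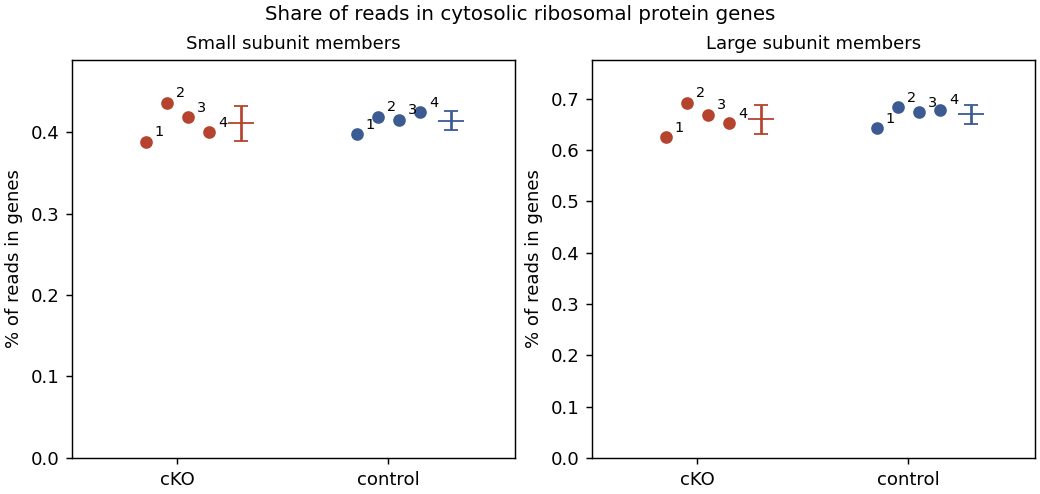
The share of reads in genes (%, axis from 0) taken by small subunit members (left) and large subunit members (right) is shown for each library, numbered by replicate, with the mean and SD beside each group. In both panels the cKO points span the control points, from 0.388% to 0.436% for the small subunit and from 0.625% to 0.692% for the large.

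In the small subunit 12 of 30 tested members had positive fold changes, with a median of -0.018. Rps6, the substrate that S6 kinase phosphorylates when mTORC1 is active, held 196, 224, 223 and 218 CPM in cKO libraries and 221, 214, 235 and 217 CPM in control libraries. Apart from cKO replicate 1, the lowest of the 8, these values overlapped (log2 fold change -0.04, 95% interval -0.16 to 0.08). Phosphorylation of the protein is not seen by RNA counts.

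Proteins around the messenger RNA channel and the decoding site were given by Rps2, Rps3, Rps9 and Rps23, of which 2 were positive. Rps23, which sits at the decoding site, held 135, 180, 168 and 163 CPM in cKO libraries and 170, 188, 173 and 185 CPM in control libraries. Its log2 fold change was -0.14 (SE 0.07, edgeR p 0.064, adjusted p 0.889), and -0.07 without cKO replicate 1, the lowest library. Rps2, Rps3 and Rps9 had log2 fold changes of 0.05, -0.04 and 0.00.

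Rps13, a core protein that binds the small-subunit RNA, was the tested member whose cKO libraries all lay above control. It held 68.5, 71.0, 68.4 and 67.9 CPM in cKO libraries and 63.5, 67.8, 65.8 and 64.5 CPM in control libraries. The nearest cKO and control libraries nearly met, and the test gave a log2 fold change of 0.08 (SE 0.06, edgeR p 0.204, adjusted p 0.889).

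Rpsa, also known as the laminin receptor precursor, is needed for small-subunit maturation and had the lowest p-value among members with a positive fold change. Values were 362, 340, 308 and 313 CPM in cKO libraries and 317, 313, 307 and 313 CPM in control libraries. Only cKO replicates 1 and 2 exceeded every control library. The log2 fold change of 0.08 (SE 0.06, edgeR p 0.185, adjusted p 0.889) was 0.03 without cKO replicate 1.

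Rps27a, made as a fusion with ubiquitin, held 107, 113, 110 and 103 CPM in cKO libraries and 108, 106, 108 and 113 CPM in control libraries. Its mean was 108 ± 4.20 CPM in cKO and 109 ± 2.89 CPM in control (SD, n = 4 each). Rps4x, an X-linked gene whose human counterpart also has a Y-linked copy, held between 188 and 204 CPM in cKO and between 191 and 205 CPM in control libraries.

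In the large subunit 16 of 45 tested members were positive, with a median of -0.026. Rpl26, a protein at the exit of the nascent-chain tunnel whose human product is also known to bind p53 messenger RNA, had the lowest p-value of all members. It held 148, 154, 164 and 168 CPM in cKO libraries and 167, 181, 176 and 168 CPM in control libraries. Control replicate 1 was the only control library below the highest cKO library. The mean was 158 ± 9.17 CPM in cKO and 173 ± 6.78 CPM in control (SD, n = 4 each), a log2 fold change of -0.13 (95% interval -0.25 to -0.01, edgeR p 0.0415, adjusted p 0.889).

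Rpl3, which reaches toward the peptidyl transferase centre, held 449, 437, 456 and 433 CPM in cKO libraries and 481, 481, 473 and 475 CPM in control libraries. All cKO values lay below all control values, the nearest at 456 CPM in cKO and 473 CPM in control. Its log2 fold change was -0.11 (SE 0.05, edgeR p 0.0501, adjusted p 0.889) and ranged from -0.12 to -0.10 when single libraries were left out. Rpl21 held 160, 190, 192 and 189 CPM in cKO libraries and 195, 195, 199 and 193 CPM in control libraries. Its groups nearly met, at 192 CPM in cKO and 193 CPM in control, and its log2 fold change of -0.10 was -0.04 without cKO replicate 1. It is named here because its groups did not overlap, a choice made after its values were seen.

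Rpl37, a zinc-finger protein of the large subunit, held 110, 162, 152 and 145 CPM in cKO libraries and 154, 166, 158 and 162 CPM in control libraries. One library, cKO replicate 1, was far below the others, and the log2 fold change of -0.17 (SE 0.09, edgeR p 0.0712, adjusted p 0.889) was -0.07 without it. Rpl29 likewise held 101, 127, 120 and 130 CPM in cKO libraries and 131, 133, 128 and 127 CPM in control libraries. Its log2 fold change was -0.12, and -0.05 without cKO replicate 1. Rpl28, in contrast, held 110, 128, 109 and 112 CPM in cKO libraries and 105, 111, 109 and 112 CPM in control libraries (log2 fold change 0.07, edgeR adjusted p 0.896).

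The stalk recruits the translation factors that hydrolyse GTP and is built from Rplp0, Rplp1 and Rplp2 on a base that includes Rpl12. All 4 had positive fold changes between 0.02 and 0.06, but Rplp1 (-0.03) and Rplp2 (-0.00137) turned negative with offsets for GC content and length together, and Rplp1 (-0.04) also with GC content alone. Rplp0, the scaffold of the stalk, held 175, 178, 159 and 161 CPM in cKO libraries and 156, 165, 163 and 163 CPM in control libraries. Its first 2 cKO libraries exceeded control and the other 2 did not (log2 fold change 0.06, SE 0.06, edgeR adjusted p 0.905). Rplp1 held 249, 287, 237 and 234 CPM in cKO libraries and 233, 265, 246 and 250 CPM in control libraries, with overlapping groups. Rplp2 held 79.4, 89.0, 78.0 and 74.8 CPM in cKO libraries and 76.5, 79.0, 80.8 and 77.0 CPM in control libraries, and only cKO replicate 2 exceeded the control range.

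Rpl5 and Rpl11 bind the 5S ribosomal RNA, and the particle they form is known to hold back Mdm2 and so to stabilise p53 when ribosome assembly fails. Rpl5 held 183, 186, 188 and 194 CPM in cKO libraries and 194, 199, 198 and 192 CPM in control libraries (log2 fold change -0.06, 95% interval -0.17 to 0.05). Rpl11 held 137, 172, 142 and 134 CPM in cKO libraries and 136, 145, 142 and 152 CPM in control libraries (log2 fold change 0.03, 95% interval -0.12 to 0.18). Neither passed the test, and in Rpl11 cKO replicate 2 alone exceeded the control range.

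Proteins that line the exit tunnel or ring its opening, where the nascent chain leaves the ribosome, had positive fold changes in 1 of 9 tested members, Rpl31, with a median of -0.036. The X-linked members were Rps4x, Rpl10, Rpl36a and Rpl39, with 1 of 4 positive. Rpl10, which joins the large subunit late in its maturation, held 182, 197, 180 and 190 CPM in cKO libraries and 182, 176, 186 and 181 CPM in control libraries. Rpl36a held 44.1, 68.1, 64.0 and 64.7 CPM in cKO libraries and 61.4, 68.4, 67.2 and 65.1 CPM in control libraries. Its log2 fold change of -0.12 was -0.00231 without cKO replicate 1, which stood apart from the other 7 libraries. Rpl39, a tunnel protein, held 44.6, 71.2, 63.8 and 63.5 CPM in cKO libraries and 58.1, 64.6, 61.2 and 63.3 CPM in control libraries, and its log2 fold change of -0.02 turned to 0.09 without that library.

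Orthologs of 15 human Diamond-Blackfan anaemia genes, in which loss of 1 copy impairs red cell formation, had positive fold changes in 6 and a median of -0.038. The smallest of their adjusted p-values was 0.889, a value that many genes share, and Rpl26 had the lowest unadjusted edgeR p among them (0.0415). Without cKO replicate 1 their median was 0.035.

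The members deviated most in a pair of cKO libraries, and in opposite directions. cKO replicate 1 had the lowest value of all 8 libraries for 40 of 75 members (53.3%), against 23.8% of all genes tested. cKO replicate 2 had the highest value for 37 members (49.3%), against 12.3% of all genes. In cKO replicate 1, 14 members lay at least 1.25-fold below the control mean and 0 that far above it. In cKO replicate 2, 5 members lay at least 1.25-fold above it and 1 below. The median SD of log2 CPM over the libraries of a group was 0.114 in cKO and 0.051 in control for the members, and 0.090 in cKO without replicate 1. For the genes of at least 50 CPM it was 0.094 in cKO and 0.064 in control, and 0.063 in cKO without replicate 1.

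**Figure D3:**
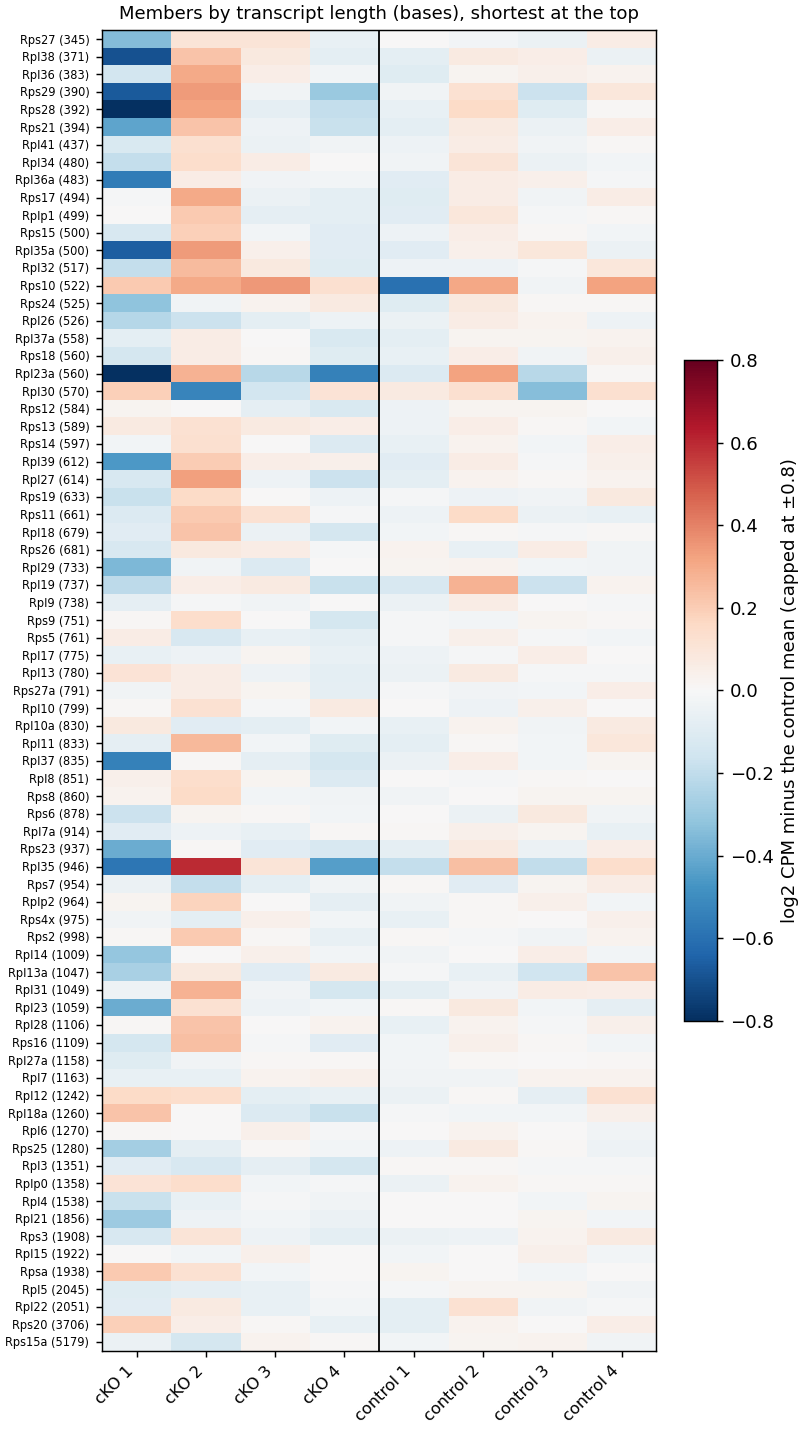
Rows are the 75 tested members, sorted by transcript length (bases, in parentheses) with the shortest at the top, and columns are the libraries, 4 cKO then 4 control. Colour is log2 CPM minus the mean of the control libraries, red above and blue below, with the strongest values capped; the darkest blue cells lie in cKO replicate 1 among short transcripts, where cKO replicate 2 is red.

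Some members with short transcripts spread widely between libraries, though not every short one did and some longer ones did too. Rps28, a short small-subunit protein near the messenger RNA exit, held 37.3, 82.9, 63.3 and 58.1 CPM in cKO libraries and 63.6, 73.6, 61.6 and 66.6 CPM in control libraries. Rps29, a zinc-binding protein of the same subunit, held 64.0, 129, 99.6 and 83.0 CPM in cKO libraries and 99.8, 111, 90.4 and 108 CPM in control libraries. Rpl38, known from mouse work for its part in translating Hox messenger RNAs, held 53.3, 102, 91.5 and 81.9 CPM in cKO libraries and 82.1, 91.3, 90.0 and 83.6 CPM in control libraries. In all 3 the lowest library was cKO replicate 1 and the highest cKO replicate 2. Rpl35a, of the large subunit, followed the same order with 69.2, 139, 113 and 103 CPM in cKO libraries and 103, 113, 116 and 106 CPM in control libraries. These 4 were chosen after their values were seen. Their fold changes between -0.13 and -0.04 did not pass the test, and without cKO replicate 1 they were 0.04, 0.02, 0.08 and 0.10 for Rps28, Rps29, Rpl38 and Rpl35a.

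The deviations were next split by transcript length. In the shortest 20 members, with transcripts of 345 to 560 bases, the median deviation from the control mean was -0.21 in cKO replicate 1 and 0.22 in cKO replicate 2 on the log2 scale. In the longest 19 members, of 1106 to 5179 bases, it was -0.06 in cKO replicate 1 and 0.00 in cKO replicate 2. In the 140 other protein-coding genes tested with transcripts of up to 560 bases the median was -0.13 in cKO replicate 1 and 0.16 in cKO replicate 2. The SD over these 140 genes was 0.43 in cKO replicate 1 and 0.27 in cKO replicate 2, wider than either median. Over the shortest 20 members it was 0.31 and 0.14. Only the medians of the 2 sets can therefore be said to lie to the same side of control, and the part of transcript length was not tested. In cKO replicates 3 and 4 the shortest 20 members deviated by -0.01 and -0.08, and in control replicates 1 to 4 by -0.08, 0.06, -0.02 and 0.01.

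Across the 75 members Spearman's rho between transcript length and deviation was 0.35 in cKO replicate 1 and -0.43 in cKO replicate 2, and 0.36 in control replicate 1 and -0.40 in control replicate 2. Over 10330 genes of at least 10 CPM it was -0.13 and -0.32 in those cKO libraries and 0.30 and -0.12 in those control libraries. With GC content in place of length, rho over these genes was 0.67 and 0.49 in those cKO libraries and -0.23 and 0.11 in those control libraries. Across the members it was 0.15 and 0.41 in those cKO libraries and -0.02 and 0.10 in those control libraries. The members share their library in each of these values and are not independent replicates. With per-library length offsets in the fit the members' median was -0.036, with GC-content offsets -0.030 and with both -0.028. The lowest share of reads in genes and the highest ambiguous share belonged to cKO replicate 1, and the highest share in genes, 79.7%, to cKO replicate 2; their part in the deviations was not tested.

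**Figure D4:**
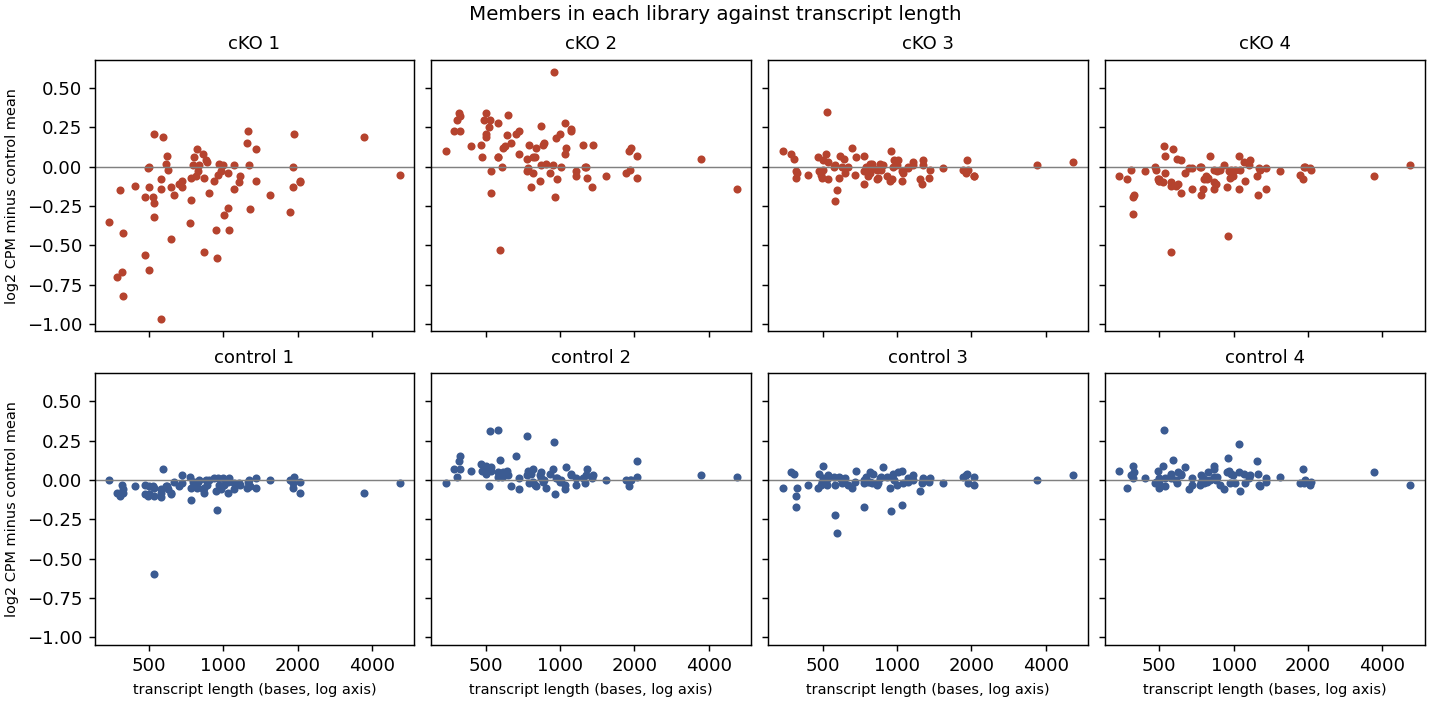
Each panel is 1 library, cKO above and control below, and each point 1 of the 75 tested members, with transcript length in bases on a log axis and log2 CPM minus the control mean on the vertical axis. Points of short transcripts lie mostly below 0 in cKO replicate 1 and mostly above 0 in cKO replicate 2, and mostly close to 0 in the control panels.

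Levels between genes were compared per kilobase of 1 annotated transcript. Over the 8 libraries the highest were Rpl41 with 548 CPM per kilobase, Rplp1 with 501 and Rps15 with 387, and the median member stood at 168. Rpl41, the shortest protein of the ribosome, held 221, 264, 232 and 236 CPM in cKO libraries and 234, 251, 236 and 242 CPM in control libraries. Its log2 fold change of -0.01 (95% interval -0.14 to 0.11) was among the closest to 0.

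The lowest 5 members, singled out after their values were seen, stood under 20 CPM per kilobase, although each encodes a core ribosomal protein. They were Rpl24 with 0.321, Rps10 with 3.82, Rpl13a with 6.70, Rpl23a with 9.06 and Rpl35 with 13.7 CPM per kilobase. All 5 belonged to the 11 members in which at least 20% of the exonic bases also lie in an exon of another annotated gene. These 11 ranged from 0.321 to 169 CPM per kilobase, with a median of 51.1. The 65 members with less sharing ranged from 22.6 to 548 CPM per kilobase, with a median of 174. Their low end depends on the transcript chosen. Rps20 (22.6) and Rps15a (26.1), named after their values were seen, held 83.6 and 135 CPM but were divided by transcripts of 3706 and 5179 bases. The same lengths place both among the longest 19 members above. Reads that fall on 2 genes were listed as ambiguous and given to neither, and no strand setting is stated for the counting. The part of such reads in the levels of the lowest 5 members was not tested.

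Rpl24 had 4, 6, 6 and 6 reads in cKO libraries and 1, 4, 0 and 4 reads in control libraries, and was not tested. It shares 47.0% of its exonic bases with Gm28037, which was at 0 reads in all libraries. Rps10 shares 28.7% with the read-through gene RPS10-NUDT3 and an antisense gene, and held 2.10, 2.27, 2.36 and 1.96 CPM in cKO libraries and 0.98, 2.29, 1.70 and 2.31 CPM in control libraries. One control library was low, and the log2 fold change of 0.25 (95% interval -0.27 to 0.77, edgeR adjusted p 0.907) rests on few reads. Rpl13a shares 35.4% with other genes and held between 5.86 and 7.52 CPM in cKO and between 6.28 and 8.43 CPM in control libraries.

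Rpl23a overlaps the opposite-strand gene Tlcd1 and shares 62.3% of its exonic bases. It held 2.60, 6.91, 4.72 and 3.70 CPM in cKO libraries and 5.14, 7.13, 4.74 and 5.62 CPM in control libraries, the lowest fold change of the family at -0.31 (95% interval -0.78 to 0.17, edgeR adjusted p 0.889). Without cKO replicate 1 it was -0.14. Rpl35, whose start carries the longest of the printed pyrimidine runs, shares 66.2% with Arpc5l and Wdr38 on the other strand. It held 8.47, 19.7, 13.8 and 9.35 CPM in cKO libraries and 11.3, 15.4, 11.2 and 14.3 CPM in control libraries, and its fold change was 0 with an interval from -0.60 to 0.60. The levels of these 5 members are uncertain, as are the fold changes of the 4 that were tested, and the part of the shared exons was not tested.

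**Figure D5:**
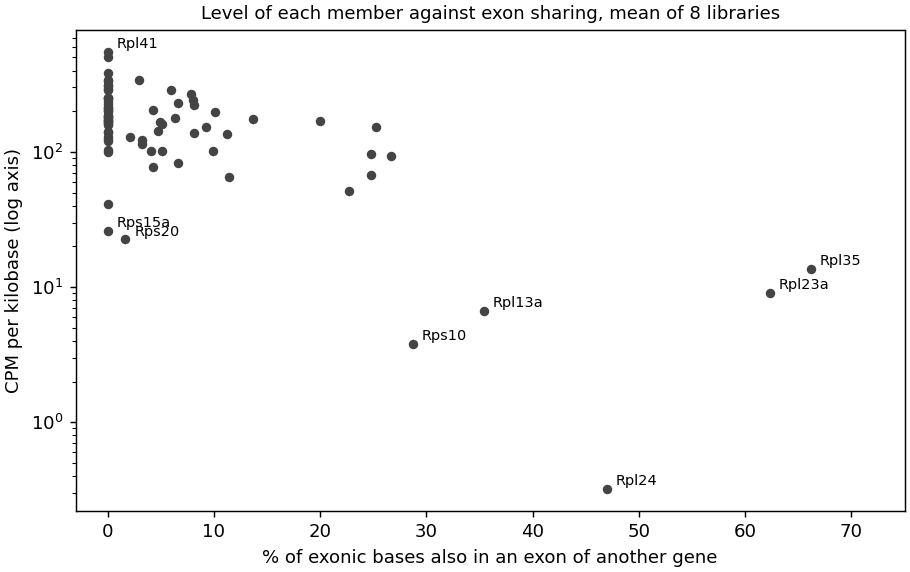
Each point is 1 of the 76 members, with the percentage of its exonic bases that also lie in an exon of another gene on the horizontal axis and its mean level in CPM per kilobase over the 8 libraries on a log vertical axis. The 5 members under 20 CPM per kilobase lie among those with at least 20% shared bases.

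Ribosomal protein genes that the symbol rule leaves out did not pass the test either. Of 12 such genes 8 were tested, 0 were called, 2 were positive and the median was -0.085. Rps3a1, which encodes the small-subunit protein eS1, held 262, 260, 276 and 262 CPM in cKO libraries and 287, 271, 282 and 281 CPM in control libraries (log2 fold change -0.08, SE 0.05, edgeR adjusted p 0.889). Only cKO replicate 3 reached into the control range. Fau, made as a fusion with a ubiquitin-like protein, held 125, 146, 124 and 121 CPM in cKO libraries and 126, 129, 126 and 131 CPM in control libraries.

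Several members have a paralog, and some of these are known to take the member's place in the ribosome. Per kilobase, Rpl22l1 made up 22.2% of the Rpl22 pair in cKO and 24.2% in control, Rpl7l1 8.10% of the Rpl7 pair in cKO and 8.51% in control, and Rps27l 7.18% of the Rps27 pair in cKO and 6.68% in control. Rpl3l, known as the form of heart and skeletal muscle, made up 0.0987% of its pair in cKO and 0.111% in control. Rpl10l, an autosomal copy known from the testis, was at 0 reads in all 8 libraries. Rpl22l1 held 3.98, 9.69, 6.53 and 5.0 CPM in cKO libraries and 6.25, 7.96, 7.19 and 6.47 CPM in control libraries, and its fold change did not pass the test (-0.12, interval -0.55 to 0.31).

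Across the rest of the translation machinery 0 genes of the 8 other lists had an edgeR adjusted p under 0.05. The lists are not separate sets, because many of the TOP transcripts also stand in the lists of initiation, elongation or biogenesis factors. At an unadjusted edgeR p under 0.05 the 36 initiation factors had 0 genes, with a median log2 fold change of -0.009, the 14 elongation and termination factors 0 with a median of -0.019, and the 21 non-ribosomal TOP transcripts 0 with a median of -0.030. Eef1g, a subunit of the elongation factor complex and a TOP transcript, held 254, 242, 228 and 232 CPM in cKO libraries and 222, 215, 227 and 224 CPM in control libraries. All its cKO values lay above control, the nearest at 228 CPM in cKO and 227 CPM in control (log2 fold change 0.11, SE 0.05, edgeR p 0.0647, adjusted p 0.889). Eif5, which triggers GTP hydrolysis at the start codon, and Eif2s1, the subunit through which stress kinases stop initiation, each had a log2 fold change of -0.12 (edgeR p 0.0877 and 0.101, both adjusted to 0.889). Etf1, the release factor, had a log2 fold change of -0.10 and Eif3a one of -0.08, with overlapping groups.

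Among 38 ribosome biogenesis factors the median was -0.010, with 1 lower at an unadjusted edgeR p under 0.05 (1.91% of all genes), Ncl. This gene, whose product nucleolin acts on ribosomal RNA precursors, held 213, 273, 271 and 291 CPM in cKO libraries and 300, 290, 288 and 291 CPM in control libraries (log2 fold change -0.16, edgeR p 0.0494, adjusted p 0.889). The value was -0.07 without cKO replicate 1, its lowest library. Tsr1, of small-subunit maturation, had a log2 fold change of -0.14 (edgeR p 0.0769, adjusted p 0.889). The 26 genes of mTORC1 and S6 kinase signalling had a median of 0.001, with Rragd at -0.11 and Lamtor2 at -0.14, and 0 past an unadjusted edgeR p of 0.05.

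The 19 RNA polymerase I genes had a median of 0.025, with 1 higher at an unadjusted edgeR p under 0.05, against 2.87% of all genes. It was Taf1c, of the promoter selectivity factor, with 15.1, 10.7, 11.1 and 12.3 CPM in cKO libraries and 8.27, 10.8, 10.6 and 10.2 CPM in control libraries (log2 fold change 0.29, edgeR p 0.0327, adjusted p 0.889). Znrd1, a polymerase subunit, had a log2 fold change of 0.21 (edgeR p 0.0816, adjusted p 0.889). Of 14 snoRNA host genes tested 1 was higher at that threshold, Snhg20, with 13.2, 14.5, 11.2 and 10.4 CPM in cKO libraries and 9.12, 11.3, 9.74 and 10.2 CPM in control libraries (log2 fold change 0.28, edgeR p 0.0294, adjusted p 0.889). Zfas1, another host, had a log2 fold change of -0.16 with overlapping groups.

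The mitochondrial ribosome, a separate particle that translates the transcripts of the mitochondrial genome, gave 49 positive fold changes among 78 genes, with a median of 0.029. At an unadjusted edgeR p under 0.05, 2 were higher and 1 lower, where 2.87% of all genes were higher and 1.91% lower. Mrps11 held 13.5, 16.0, 13.2 and 11.5 CPM in cKO libraries and 12, 10.8, 12.4 and 10.8 CPM in control libraries (log2 fold change 0.24, edgeR p 0.0482, adjusted p 0.889). Mrpl11 held 29.0, 31.6, 29.8 and 29.1 CPM in cKO libraries and 32.7, 35.4, 31.3 and 34.6 CPM in control libraries (log2 fold change -0.16, edgeR p 0.0393, adjusted p 0.889). In both genes the groups overlapped. The other gene higher at that threshold was Mrpl30, with 35.0, 34.7, 35.2 and 36.5 CPM in cKO libraries and 32.5, 30.3, 32.5 and 32.4 CPM in control libraries (log2 fold change 0.15, edgeR p 0.0495, adjusted p 0.889). Its cKO values all lay above control, as did those of Mrpl55 (log2 fold change 0.18, edgeR p 0.0524, adjusted p 0.889). Mrpl30 and Mrpl55 were chosen after their values were seen. Elsewhere in the related lists the groups were also separate, higher in cKO for Eif1 and Eif2b4 and lower for Rheb. None of these 3 passed the test, and they were likewise chosen after their values were seen. Over all genes tested the groups were separate upward for 1.57% and downward for 1.39%.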

How the data were processed

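Total RNA of mouse brain was measured by RNA sequencing in 4 cKO and 4 control libraries, grouped by their titles. The authors deposited whole-number read counts per gene, 1 table per library, without normalization. HISAT2 and the GRCm39 build are named, per the submitters' processing notes. Their versions and the counting program with its annotation and strand setting were not found in the sources used. RNA was purified on columns and libraries came from a commercial provider, per the labels' protocols. The 5 entries that name no gene were left out of totals and tests; reads in genes were 63.8% to 79.7% of those listed.

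The members and lists were chosen with earlier results of these data known. Counts were filtered with filterByExpr (16766 of 32202 genes with a read), scaled by TMM and tested with edgeR 4.0.16 (robust quasi-likelihood, group only, R 4.3.3), adjusted by Benjamini-Hochberg over all genes at 0.05; the procedure was tested on simulated data. CPM are TMM-scaled counts computed here. Symbols (51929 of 57186 genes), lengths, GC content and exon overlaps came from GENCODE M21 (GRCm38), another build than the counts, so no position of a count is given. A gene's length is that of 1 transcript: the lower median among those paired with a RefSeq mRNA, otherwise the longest. Under 20 CPM per kilobase the intervals of tested members reached beyond 1.25-fold. Same-numbered libraries did not deviate together (correlations 0.01 to 0.05) and no label pairs them. The most alike libraries differed 2.99 times more than counting noise.

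Genes named were Akap11, the 5 lowest p-values among members in each direction, members and paralogs fixed by role, and up to 2 lowest p-values per list; others are said to be chosen after their values were seen. A gene that this rule names is not reported here. Alternatives were DESeq2 1.42.0, limma 3.58.1 voom, other scalings and filters, GC and length offsets (loess span 0.5), the replicate number as block and omitted libraries.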

Additional observations from a re-analysis of the deposited data

Results flagged for a closer look

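In groups of 4 libraries a value was singled out where its gap to the nearest other library, divided by the range of the group, exceeded Dixon's 95% critical value; 96 groups were examined, of which chance alone gives about 1 in 20. High values of cKO replicate 2 were found for Rps13, with 71.0 CPM against 67.9 to 68.5 CPM in the other cKO libraries, for Rpl28, with 128 CPM against 109 to 112 CPM, and for Fau, with 146 CPM against 121 to 125 CPM. Low values of cKO replicate 1 were found for Rpl36a, with 44.1 CPM against 64.0 to 68.1 CPM in the other cKO libraries, and for the release factor Etf1, with 78.7 CPM against 89.1 to 91.3 CPM. In Rps3a1 the high library was cKO replicate 3, with 276 CPM against 260 to 262 CPM.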

How the results depend on the processing

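Under 20 alternatives 0 ribosomal protein members and 0 genes of the related lists had an adjusted p under 0.05. The count of members at an unadjusted edgeR p under 0.05 moved more. It was 1 of 75 in the main fit, where 4.78% of all genes passed, and 0 with library totals alone. With length offsets it was 4, and with GC-content and length offsets or without cKO replicate 2 it was 5. Over all genes 4 were called, with 2 under limma voom, 2 with the replicate number as a block, 2 with both replicates 1 omitted, 7 with no low-count filter and 0 to 3 with single libraries left out. The members' median log2 fold change of -0.024 was -0.027 with the replicate block, 0.001 with both replicates 1 omitted and -0.058 to 0.006 with single libraries left out, with 14 to 41 members positive; the block changed no call of a member. The cKO minus control difference in the share of reads was -0.0127 percentage points, and -0.0321 to 0.00641 with single libraries left out. Of 43 named genes 10 changed sign in at least 1 alternative, never by more than 0.09 from 0 in the new direction, and 28 of their values changed sign, 830 did not and 2, of Akap11, kept it without the call. With both replicates 1 omitted these were Rplp1 -0.00511, Rps6 0.000564, Rpl39 0.07, Rpl41 0.00805 and Rps27a 0.0013. Under GC-content offsets they were Rplp1 -0.04, Rpl39 0.00132, Rps27a 0.01 and Fau -0.07, under length offsets Fau -0.00167, and under both offsets Rplp1 -0.03, Rplp2 -0.00137, Rpl39 0.000142, Rps27a 0.01 and Fau -0.07. With library totals alone Rps27a was at 0.0051. With single libraries left out the ranges were -0.03 to 0.01 for Rps27a, -0.05 to 0.05 for Rplp1, -0.02 to 0.07 for Rplp2, -0.10 to 0.09 for Rpl39, -0.07 to 0.02 for Rpl41, -0.05 to 0.04 for Fau, -0.06 to 0.06 for Rpl11, -0.41 to 0.02 for Rpl22l1 and -0.01 to 0.18 for Rps27l. Akap11 ranged from -0.55 to -0.42 and lost its call without control replicate 2 (edgeR adjusted p 0.0616) or cKO replicate 2 (0.104). The causes were not tested. Rpl24, with 31 reads in all, fell below the low-count filter.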

Other observations

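Pseudogenes named after ribosomal proteins, of which 300 are listed, held 11511 reads in all, against 1541539 reads in the members. By library they held 537, 1771, 1636 and 1556 reads in cKO libraries and 1298, 1393, 1596 and 1724 reads in control libraries, counts not scaled to library size. cKO replicate 1 stood below the other 7, with 537 of these reads at 13841218 reads in genes. Control replicate 2, with the next fewest reads in genes at 15752877, held 1393 of them. cKO replicate 1 also had the lowest share of mitochondrially encoded reads, 2.77%, against 3.42% to 3.48% in the other cKO libraries and 3.15% to 3.39% in control libraries. Rps12 and Rpl31 had the most such pseudogenes, 24 each. How reads were divided between members and their pseudogenes was not tested.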
